A study of Mus musculus with 2 samples.

Results

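Cycling T cells were described in the tumours of mice on 2 diets, one of which held sitagliptin, a drug taken by mouth that blocks the peptidase DPP4 (CD26). They were selected on measured values, as barcodes that met 3 limits on raw UMI counts (unique molecular identifiers, 1 per captured RNA molecule). The T cell genes Cd3d, Cd3e, Cd3g and Trac summed to at least 2 UMIs, the macrophage genes C1qa, C1qb, C1qc, Lyz2 and Apoe to at most 3, and the cell cycle genes Mki67, Top2a, Cdk1, Birc5 and Ccna2 to at least 2. These limits found 183 of 18460 barcodes, 83 of 8694 under the control diet and 100 of 9766 under sitagliptin. Barcodes that met the T cell and macrophage limits but not the cycle limit, 161 and 319, are called other T barcodes below. The chosen values are a description of the choice, and levels of the rule's own genes support nothing.

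The mice, of genotype WT, bore tumours of MC38-OVA cells, which derive from a colon carcinoma of the mouse and express the antigen ovalbumin. The control group received the control diet and the treated group the sitagliptin diet, and both groups carried the same tumour. CD45+ cells of tumour suspensions were enriched on magnetic columns (MACS) and made into 1 5' droplet library per diet with the SeekOne DD kit. The sources used here give neither the mice per library, their strain background and age, nor the dose and length of feeding. With 1 library per diet there is no replicate error, no test between diets was run, and every 95% interval covers counting error only. A difference between the libraries is a difference between 2 libraries, and diet and library cannot be told apart.

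T cells that meet antigen leave quiescence and divide. Around the start of S phase E2F factors switch on genes of DNA synthesis, and the replication-dependent histones are made while DNA is copied. A later programme of mitotic genes is held back in quiescent cells by the DREAM complex. In dividing cells it is switched on by B-Myb and FOXM1. In tumours, dividing CD8 T cells often carry granzymes together with inhibitory receptors such as PD-1 and TIM-3, and they lie between memory-like precursors and terminally exhausted cells. DPP4 on T cells cleaves chemokines such as CXCL10 and binds adenosine deaminase and caveolin-1.

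The libraries held 64139749 and 76788699 UMIs, with medians of 5074 and 5158.5 UMIs per barcode, and no barcode had fewer than 2001. The cycling T cells held 460133 control and 647014 sitagliptin UMIs. Their median depth was 4230 UMIs (range 2020 to 24125) and 5245.5 UMIs (2301 to 25316), above the other T barcodes at 2924 and 3086. Both libraries shared 132 barcode sequences. Of the cycling T cells 2 in the control and 1 in the sitagliptin library carried a shared sequence, and 0 were cycling T cells in both. The automatic doublet threshold of Scrublet marked 0 barcodes, and 1 control and 4 sitagliptin cycling T cells were among the 6% with the highest doublet scores.

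The limits were narrow for some members. In the control library 8 cycling T cells stood at 2 cycle UMIs, just inside, and 32 T barcodes at 1, just outside. In the sitagliptin library these numbers were 21 and 54. At the T cell limit 4 and 7 members had 2 UMIs, and 37 and 25 barcodes missed it with 1. At the macrophage limit 8 and 9 members had 3 UMIs, and 4 and 7 barcodes missed it with 4. The median member was far from the limits, with 7 and 8 T cell UMIs, 11 and 10 cycle UMIs and 1 macrophage UMI in each library.

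The macrophage limit set aside most barcodes that carried both T cell and cycle RNA. Of 412 such barcodes in the control library 329 (79.9%) were over it, and of 407 in the sitagliptin library 307 (75.4%). The 183 cells described here are therefore the part of the dividing T cell signal with little macrophage RNA. How many of the barcodes set aside held a T cell together with a macrophage was not tested.

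Of the rule's own genes, which check nothing, Mki67, the proliferation antigen, was found in 91.6% of control and 87.0% of sitagliptin members, and Top2a, topoisomerase II alpha, in the same 91.6% and 87.0%. The label was checked against T cell genes outside the rule, which were present in both libraries. Trbc2, a T cell receptor beta constant gene, was at 422 and 419 CPM (UMIs per 1000000 UMIs of the summed members), Thy1 at 202 and 224 CPM, and Lck, the kinase of T cell receptor signalling, at 128 and 142 CPM. Natural killer barcodes had Trbc2 at 118 and 140 CPM, Thy1 at 232 and 177 CPM and Lck at 182 and 95.6 CPM. Thy1 and Lck thus do not tell T cells from natural killer cells. Cd5 was at 69.5 and 55.6 CPM and Cd6 at 39.1 and 64.9 CPM in members, and both had 0 UMIs in natural killer barcodes. None of the 11 markers of the T cell list was at 0 in members. Their sums of 2547 and 2689 CPM include Cd3d, Cd3e, Cd3g and Trac of the rule.

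Most cycling T cells were of the CD8 kind. After each barcode was thinned to 2000 UMIs, a UMI of Cd8a or Cd8b1 without Cd4 was found in 51 of 83 control members (61.4%, exact Clopper-Pearson 95% interval 50.1 to 71.9) and in 71 of 100 sitagliptin members (71.0%, 61.1 to 79.6). The ratio of these shares was 1.16 (0.935 to 1.43), so no difference was resolved at this number of cells. Without thinning the shares were 67.5% and 78.0%. In macrophage barcodes, which should lack CD8, the same thinned count gave 1.16% and 0.765%. Among other T barcodes it gave 59.0% (51.0 to 66.7) and 62.1% (56.5 to 67.4), and without thinning 65.2% and 66.5%. In control cycling T cells thus had nearly the CD8 share of other T barcodes. In sitagliptin their CD8 share was higher, with intervals that overlap.

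Other T lineages were few. A Cd4 UMI without CD8 was found in 4 of 83 and 3 of 100 thinned members (4.82% and 3%), and a UMI of Foxp3, the regulatory T cell factor, in 2 and 3. Genes of the gamma-delta receptor were found in 5 and 3 members, and the natural killer genes Ncr1 or Klrb1c in 2 and 4. Neither CD8 nor Cd4 was seen in 33.7% and 26.0%. These counts are too small to compare the diets, and a missing UMI at 2000 UMIs does not show a missing transcript.

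RNA of other cell types moved with some results below. Of the B cell list Cd79a, Ms4a1 and Pax5 were at 0 in both libraries, and the plasma cell, mast cell and erythroid lists were at 0 throughout. The macrophage list summed to 296 CPM in control and 207 CPM in sitagliptin members, and the fibroblast list, led by the matrix gene Dcn, to 91.3 and 77.3 CPM against 8.51 and 9.40 CPM in other T barcodes. Members with at least 2 UMIs of the fibroblast list or of 5 macrophage genes outside the rule, among them Csf1r, Adgre1, Cd68 and Fcgr3, a split chosen after seeing the data, are called mixed-signal barcodes here. They were 11 of 83 control and 8 of 100 sitagliptin members but held 26.0% and 15.7% of the members' UMIs. Ptprc, the gene of CD45, was at 460.4 and 432 CPM in them, against 1359 and 1334 CPM in the rest. Cycling barcodes with no UMI of Ptprc or of the rule's T cell genes and at most 3 of its macrophage genes had Dcn at 147 and 170 CPM. They numbered 679 and 303 in the libraries. Whether the mixed-signal barcodes are T cells was not tested. Results that depend on them are given with and without them. The same split marked 19 of 161 control and 22 of 319 sitagliptin other T barcodes, so mixed signal was not particular to cycling T cells. Diet ratios of other T barcodes include these marked barcodes.

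The cycling share of T barcodes was lower in the sitagliptin library. In control 83 of 244 T barcodes were cycling (34.0%, 28.1 to 40.3), and in sitagliptin 100 of 419 (23.9%, 19.9 to 28.2), a ratio of 0.702 (Katz log 95% interval 0.549 to 0.896). T barcodes themselves made up more of the sitagliptin library, 4.29% against 2.81% of all barcodes. Cycling T cells as a share of all barcodes were at 0.955% (0.761 to 1.18) and 1.024% (0.834 to 1.24), a ratio of 1.07 (0.803 to 1.43). The lower share among T barcodes stood beside 319 T barcodes that were not cycling, against 161 in control.

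**Figure D1:**
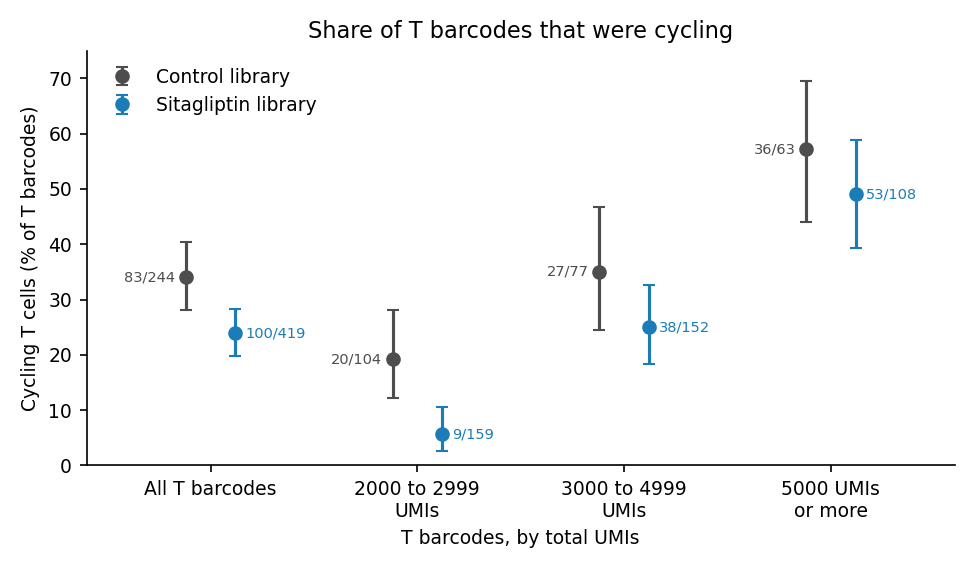
Percent of T barcodes that met the cycle limit (y axis) over all T barcodes and in 3 ranges of total UMIs (x axis), 1 point per library with exact 95% binomial intervals for counting error and the counts beside each point. The sitagliptin share was below the control share in each range, from 5.66% against 19.2% below 3000 UMIs to 49.1% against 57.1% at 5000 UMIs or more.

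Depth sets how easily a barcode meets the cycle limit, and the share was read within ranges of depth. Below 3000 UMIs 20 of 104 control and 9 of 159 sitagliptin barcodes were cycling, a ratio of 0.294 (0.139 to 0.621). From 3000 to under 5000 UMIs 27 of 77 (35.1%) and 38 of 152 (25%) were cycling, a ratio of 0.713 (0.473 to 1.07). At 5000 UMIs or more 57.1% and 49.1% were, and the ratio was 0.859 (0.644 to 1.14). The plot of the cycling share by depth shows the same order of libraries in all 3 ranges, with a wider gap among shallow barcodes. With the rule applied after thinning to 2000 UMIs cycling T cells made up 25% and 17.9%, with a ratio of 0.714 (0.530 to 0.963).

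The lower share was also read in the T lineages and in other immune cells. Among T barcodes with CD8 and no Cd4 UMIs 56 of 161 control (34.8%) and 78 of 290 sitagliptin barcodes (26.9%) were cycling, a ratio of 0.773 (0.582 to 1.03). Cells with Cd4 only were 6 of 14 and 6 of 24. Among natural killer barcodes 16.7% and 18.7% were cycling, with a ratio of 1.12 (0.538 to 2.34) that is too wide to place. Macrophage barcodes were cycling in 28.7% and 25.6%, at a ratio of 0.894 (0.825 to 0.970).

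Cell cycle genes set the cycling T cells apart from other T barcodes, which follows from the rule. Among 6241 genes with enough UMIs 9.28% were more than 1.5-fold higher in cycling T cells in both libraries and 5.93% lower. Of 36 measured G2/M genes all 36 were higher past 1.5-fold in both, with median log2 ratios of 3.01 in control and 3.10 in sitagliptin. Of 39 G1/S genes 34 were, with medians of 1.81 and 1.66, and of 13 histone genes 13, with medians of 3.77 and 3.66. These genes vary with the 5 cycle genes of the rule, and the counts are given as a description of the cells chosen.

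Hist1h3c, a replication-dependent histone H3 gene, had 186.9 and 143.7 CPM in cycling T cells against 1.70 and 0.855 CPM in other T barcodes. Each of the latter levels is 1 UMI, so the ratios of 110 (19.2 to 4387) and 168 (29.4 to 6711) have very wide intervals. Cenpf, a kinetochore protein made in G2, had 335 and 209 CPM, with ratios of 197 (34.8 to 7817) and 61.0 (23.3 to 227). Kif4, a chromosome-bound kinesin, had a ratio of 125 (21.9 to 4992) in control and was at least 60.3-fold higher in sitagliptin, where other T barcodes had 0 UMIs and a floor of 3 counts over the group was used (exact 95% lower limit 48.1). Hist1h1b, a linker histone, rested on more counts, 30 and 60 UMIs in other T barcodes, with ratios of 76.8 (53.6 to 114) and 55.9 (43.2 to 73.6). The other 11 genes named by the ranking were Aspm, Bub1, Cdca8, Cdca3, Hist1h2ae, Hist1h2an, Pbk, Sgo2a, Hist1h2ab, Hist1h1a and Esco2, all of mitosis, chromatid cohesion or chromatin. Histone genes have near-identical copies, and reads may have been split among them.

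Promoters of 2 mitotic and 2 S phase genes are shown because the 2 programmes are known to use different elements. Only genes whose window held the element of their list, CHR for G2/M and E2F for G1/S (letters below), were eligible. Of these the 2 per list with the highest ratios of cycling over other T barcodes were taken, by the smaller of both libraries. The presence of that element in each window was thus fixed by the choice. The windows are the 120 bases upstream of the RefSeq start in GRCm38.p6, on the gene's strand, matched by gene symbol. Capitals mark matches on either strand to the CHR element TTTGAA, to the box CCAAT, or to the E2F sites TTTCCCGC, TTTGGCGC, TTTCGCGC and TTTGCCGC.
Ube2c, chr2:164769809-164769928, plus strand: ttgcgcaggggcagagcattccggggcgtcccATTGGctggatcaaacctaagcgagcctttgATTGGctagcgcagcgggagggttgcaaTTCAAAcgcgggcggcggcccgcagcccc
Kif11, chr19:37376262-37376381, plus strand: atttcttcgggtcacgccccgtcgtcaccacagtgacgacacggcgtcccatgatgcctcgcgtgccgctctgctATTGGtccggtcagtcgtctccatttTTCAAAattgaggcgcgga
Dtl, chr1:191575545-191575664, minus strand: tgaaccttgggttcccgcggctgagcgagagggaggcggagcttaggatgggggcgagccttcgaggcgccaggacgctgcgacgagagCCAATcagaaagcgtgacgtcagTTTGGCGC
Hells, chr19:38930870-38930989, plus strand: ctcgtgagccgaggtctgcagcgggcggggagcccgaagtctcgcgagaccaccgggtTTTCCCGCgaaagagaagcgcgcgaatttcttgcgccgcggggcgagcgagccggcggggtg

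Ube2c, the E2 enzyme of the anaphase-promoting complex, had 419 and 224 CPM in cycling T cells against 15.3 and 5.98 CPM in other T barcodes. Kif11, the spindle kinesin Eg5, had 236.9 and 216 CPM against 5.11 and 11.1 CPM. Dtl, which directs degradation of CDT1 in S phase, had 163 and 124 CPM against 27.2 and 31.6 CPM. Hells, a chromatin remodeller of DNA methylation, had 174 and 122 CPM against 44.2 and 43.6 CPM. In the 250 bases upstream the CHR letters were found in 15 of 44 G2/M promoters (34.1%), 5 of 33 G1/S promoters (15.2%) and 16.3% of all 27025 mouse promoters. The E2F letters were found in 9 of 33 G1/S promoters (27.3%), 1 of 44 G2/M promoters (2.27%) and 1.91% of all. CCAAT was found in 79.5% of G2/M, 72.7% of G1/S and 34.5% of all promoters. CHR and CCAAT stood together in 14 of 44 G2/M (31.8%), 4 of 33 G1/S (12.1%) and 5.73% of all promoters. A match is a description of the letters and not a bound site.

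**Figure D2:**
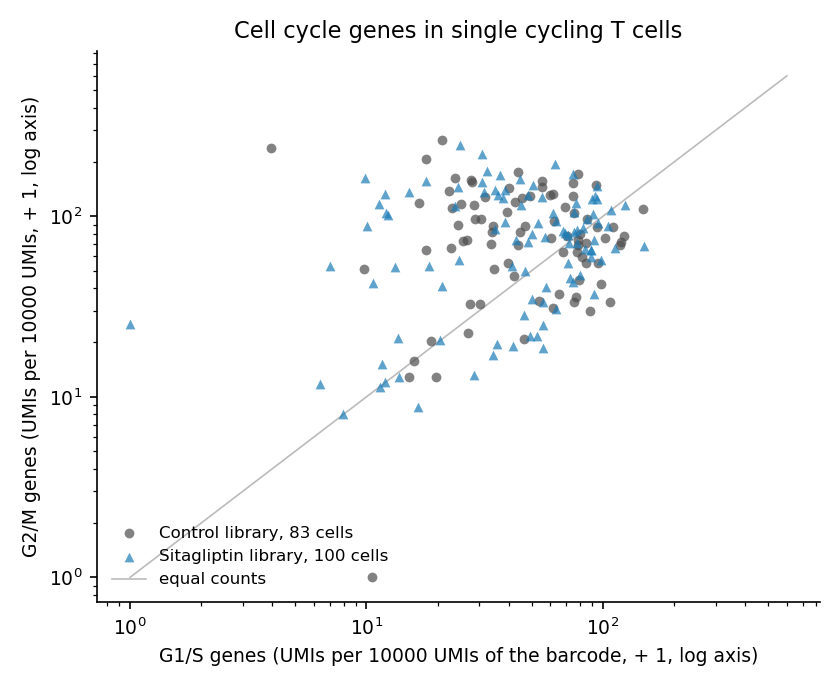
Each point is 1 cycling T cell, with UMIs of G1/S genes (x axis) and of G2/M genes (y axis) per 10000 UMIs of the barcode, 1 added, both on log axes, and a grey line where both are equal. Both libraries spread over both sides of the line, with median G1/S shares of 39.0% in control and 42.5% in sitagliptin.

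The balance of G1/S and G2/M genes varied widely between single cycling T cells in both libraries. The G1/S genes summed to 5005 CPM in control and 5014 CPM in sitagliptin, and the G2/M genes to 8719 and 8057 CPM. Among members with at least 5 UMIs of these lists, 82 and 99 cells, the G1/S share of cell cycle UMIs had a median of 39.0% (quartiles 25.5 to 55.0, range 1.22 to 76.5) in control and 42.5% (23.4 to 56.3, range 0 to 75.6) in sitagliptin. A G1/S share above 60% was found in 16 and 20 cells, one of 40 to 60% in 24 and 34, and one below 40% in 42 and 45. Other T barcodes, at lower levels of these genes, had as wide a spread, with quartiles of 28.6 to 58.8 and 28.6 to 57.1. Low counts widen such a share, so their spread cannot show what it means in cycling T cells. Whether the share places a cell in the cycle was not tested. The plot of cell cycle genes in single cells shows both libraries over the same area.

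Nucleotide synthesis genes were higher in cycling than in other T barcodes in both libraries. Tyms, Rrm1 and Rrm2 of this list are also on the G1/S list, so part of this follows from the rule. The control library had 17.1% of all genes higher and 14.1% lower past 1.5-fold, the sitagliptin library 17% and 15.5%. Of 22 nucleotide and one-carbon genes 12 were higher in control and 18 in sitagliptin, with medians of 0.65 and 0.86 on the log2 scale. Rrm2, the small subunit of ribonucleotide reductase, had 215 against 3.40 CPM in control and 158 against 5.98 CPM in sitagliptin. Tk1, thymidine kinase, had 69.5 against 13.6 CPM and 98.9 against 7.69 CPM. Of 20 genes of MYC and ribosome biogenesis 3 were higher in control, a share no larger than that of all genes, and 10 in sitagliptin, with medians of 0.22 and 0.63. Ran, the GTPase of nuclear transport, had 576 against 306 CPM in control and 581 against 197.5 CPM in sitagliptin.

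**Figure D3:**
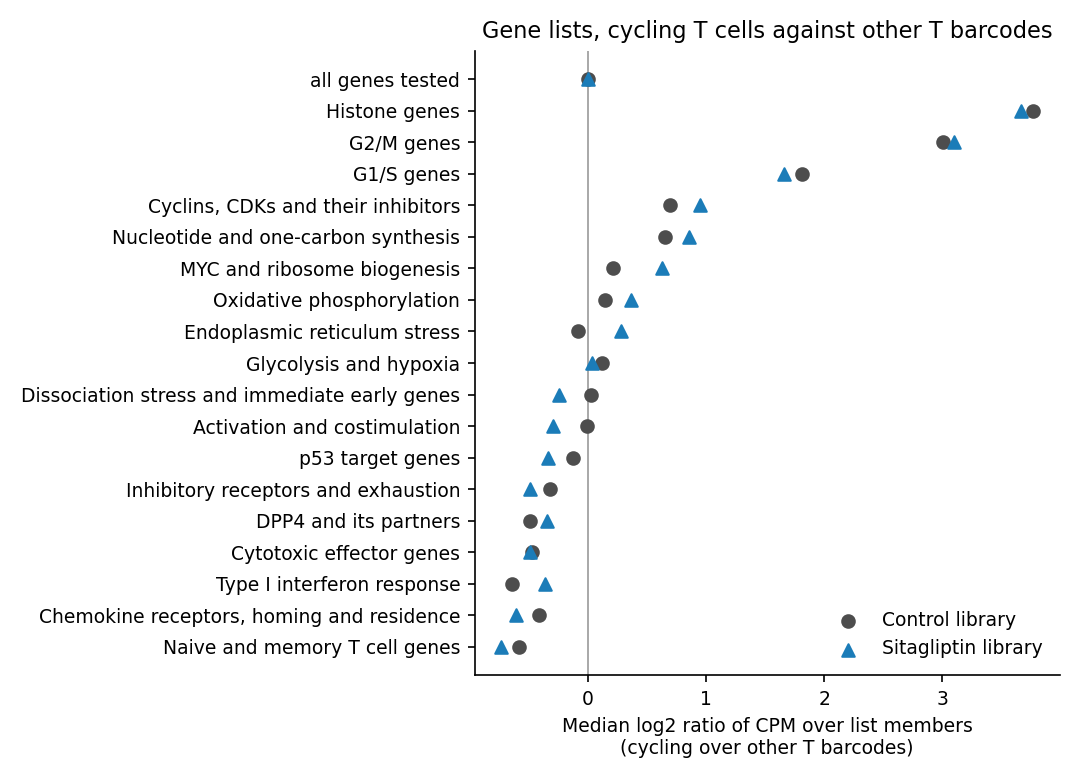
Median log2 ratio of CPM, cycling over other T barcodes (x axis), for each gene list and for all genes tested (y axis), 1 point per library. Histone, G2/M and G1/S lists lie far to the right by the choice of cells, and memory, homing and interferon lists lie to the left of 0 in both libraries, with memory at -0.58 and -0.73.

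Genes of resting and memory T cells were lower in the cycling T cells. Of 13 such genes 6 were lower past 1.5-fold in control and 9 in sitagliptin, with median log2 ratios of -0.58 and -0.73. Bach2, a repressor that keeps T cells memory-like, had 102 against 197 CPM in control and 149.9 against 273 CPM in sitagliptin. Satb1, a chromatin organiser, had 165 against 315 CPM and 175 against 368.5 CPM, and Bcl2, the survival factor, 172 against 312 CPM and 210.2 against 321 CPM. Il7r, the receptor of the survival cytokine IL-7, had 185 against 252 CPM and 184 against 325 CPM. The interferon list was lower too, with 12 of 22 genes lower in control and 8 in sitagliptin and medians of -0.64 and -0.36.

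Effector and inhibitory genes were not higher in cycling than in other T barcodes. The cytotoxic list had medians of -0.47 and -0.48, with 0 of 20 genes higher past 1.5-fold in control and 2 in sitagliptin. Ccl5, a chemokine of effector cells, was at ratios of 0.53 and 0.34, and Nkg7, a granule protein, at 0.73 and 0.86. The inhibitory list had medians of -0.32 and -0.48, with 1 of 15 genes lower past 1.5-fold in control and 7 in sitagliptin. Among activation genes Il2ra, the alpha chain of the IL-2 receptor, had ratios of 1.59 and 1.28.

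Genes of antigen presentation were among the 10 named lower genes in cycling T cells. Cd74, the invariant chain, had 748 against 3481 CPM in control (ratio 0.215, 0.191 to 0.241) and 811 against 2558 CPM in sitagliptin (0.317, 0.289 to 0.348). The class II genes H2-Aa (0.171 and 0.256), H2-Eb1 (0.209 and 0.274) and H2-Ab1 (0.213 and 0.286), the cysteine protease inhibitor Cst3 (0.211 and 0.311) and the adaptor Tyrobp (0.314 and 0.316) stood beside it. The other 4 named lower genes were Pkib, Plbd1, Slc8a1 and Tbc1d4. In the dendritic cell list cycling T cells summed to 47.8 and 108 CPM and other T barcodes to 208 and 246 CPM. Its part in these ratios was not tested.

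Levels in cycling T cells were then compared between the diets. Of 6464 genes with at least 20 UMIs 9.31% were higher past 1.5-fold in the sitagliptin library and 13.3% lower, and the median log2 ratio over all of them was -0.07. With TMM scaling of edgeR, which moves every log2 ratio by 0.11, 820 were higher and 632 lower, in place of 602 and 860. Ratios near 1 therefore have no firm direction. Among 7435 genes of the other T barcodes 10.2% were higher and 11.2% lower. Shares of list members past 1.5-fold are to be read against these percentages.

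**Figure D4:**
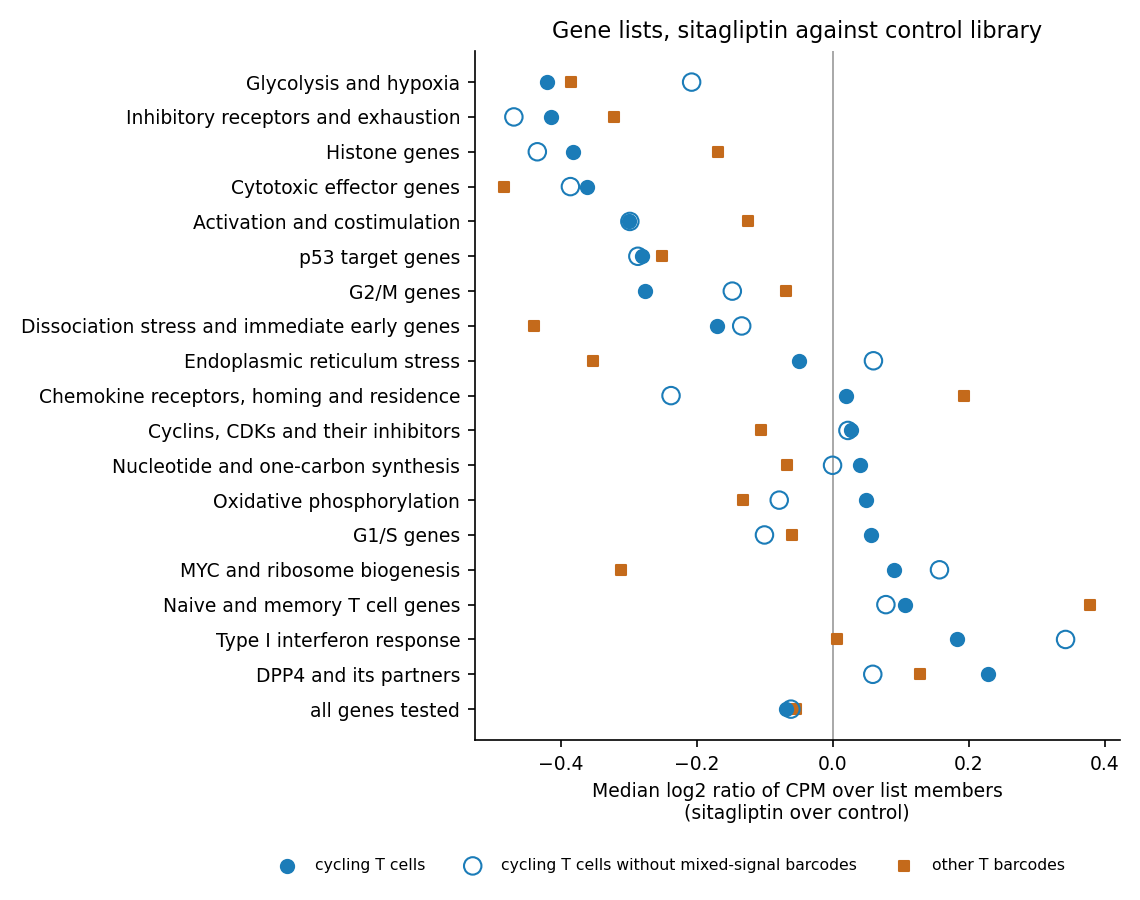
Median log2 ratio of CPM, sitagliptin over control (x axis), for each gene list and for all genes tested (y axis), in all cycling T cells (filled circles), in those without mixed-signal barcodes (open circles) and in other T barcodes (squares). Glycolysis (-0.42), inhibitory (-0.41), histone (-0.38) and cytotoxic (-0.36) lists lie farthest left in cycling T cells, and all genes lie at -0.07.

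Most effector genes had lower summed levels in sitagliptin cycling T cells. Of 22 listed 20 were measured, 7 were lower and 2 higher past 1.5-fold, and the median log2 ratio was -0.36. The list was lower in other T barcodes too, with 9 of 21 lower and 0 higher past 1.5-fold and a median of -0.48. Gzmb, granzyme B, the main killing protease, was at 2832 CPM in control and 1913 CPM in sitagliptin, a ratio of 0.676 (0.625 to 0.731). It was found in 64 of 83 control and 67 of 100 sitagliptin members, at a median of 8.62 and 4.33 UMIs per 10000. The 5 members with most Gzmb held 35.8% and 51.2% of its UMIs, so the sum rests on a minority of cells. Prf1, the pore protein perforin, was at 149.96 and 100.5 CPM, a ratio of 0.670 (0.470 to 0.954). Nkg7 was at 1521 and 1295 CPM, a ratio of 0.851 (0.769 to 0.943). Gzmb in other T barcodes had a ratio of 0.559 (0.529 to 0.592), in the same direction. The cytotoxic list was not lower at every G1/S share. It summed to 8936 CPM in control and 17540 CPM in sitagliptin among members with a share above 60%, to 10803 and 5023 CPM at 40 to 60%, and to 9122 and 5104 CPM below 40%. The 20 sitagliptin members above 60% held 2152 UMIs of the list. Of these members 1 held 221 Gzmb and 316 Gzmc UMIs and another 193 Gzmb UMIs, so the higher sum rests on few cells. The natural killer list summed to 691 and 368 CPM in all cycling T cells. Its defining genes were at 2.17 and 3.09 CPM (Ncr1) and at 15.2 and 18.5 CPM (Klrb1c). Of the list Fcer1g gave 300 and 88.1 CPM and Tyrobp 196 and 108 CPM. In macrophage barcodes the list summed to 4873 and 4178 CPM. Its part in the effector and chemokine ratios was not tested.

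Ccl3, Ccl4 and Ccl5, chemokine genes of the effector list, had lower summed levels as well. Ccl4, a chemokine that draws T cells and monocytes, was at 372 and 129.8 CPM, a ratio of 0.349 (0.266 to 0.456), and at 0.279 without mixed-signal barcodes. The share of members with a Ccl4 UMI did not follow, at 24 of 83 in control and 38 of 100 in sitagliptin, or 19.3% and 18% after thinning. The 5 members with most Ccl4 held 59.1% and 44.0% of its UMIs. In macrophage barcodes Ccl4 was at 493 and 471 CPM, a ratio of 0.956, so it is not particular to T cells. Which cells gave the Ccl4 UMIs was not tested. Ccl3, its close relative, was at 78.2 and 26.3 CPM, a ratio of 0.336 (0.177 to 0.614). Ccl5 was at 830.2 and 544 CPM, a ratio of 0.655 (0.565 to 0.759). Other T barcodes had ratios of 0.627 for Ccl4 and 1.03 for Ccl5. Whether the cycling T cells differ from the other T barcodes in this cannot be tested with 1 library per diet.

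Granzymes other than Gzmb came from few cells. Gzmf was at 326 and 179 CPM, a ratio of 0.550 (0.428 to 0.705). Gzmd had a ratio of 0.416, with 66.9% of its control and 52.6% of its sitagliptin UMIs in 1 barcode. Gzmc was at 652 and 617 CPM, with 79.2% of the sitagliptin UMIs in 1 barcode. Gzma, the tryptase granzyme, was the other way round, at 389 and 590.4 CPM, a ratio of 1.52 (1.27 to 1.82). It was found in 12 of 83 and 16 of 100 members, and 48.6% and 36.4% of its UMIs were in 1 barcode.

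Ifng, the gene of interferon gamma, was higher, unlike most effector genes. It was at 54.3 CPM in control and 147 CPM in sitagliptin, a ratio of 2.70 (1.72 to 4.38). A UMI of it was found in 12 of 83 control and 28 of 100 sitagliptin members, or in 7.23% and 15% after thinning. The 5 members with most Ifng held 72.0% and 62.1% of its UMIs, so the sums rest on few cells. Without mixed-signal barcodes the ratio was 2.02 (1.28 to 3.31), and with every cell weighted equally 1.61. In other T barcodes it was 1.38 (0.947 to 2.04). The interferon-induced chemokine gene Cxcl10 was at 32.6 and 91.2 CPM, a ratio of 2.80 (1.57 to 5.31), and of 1.93 (0.983 to 4.06) without mixed-signal barcodes.

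**Figure D5:**
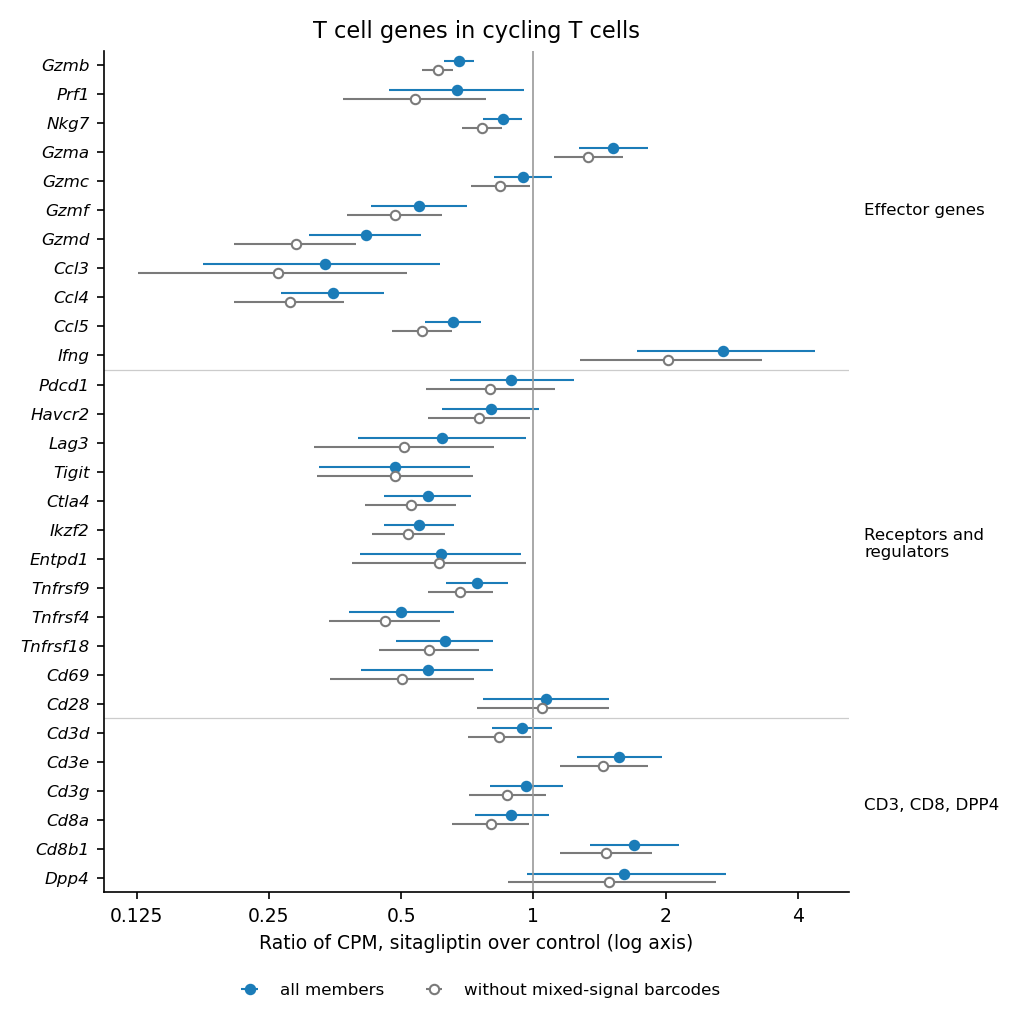
Ratio of CPM, sitagliptin over control (x axis, log scale), with exact 95% intervals for counting error, for effector genes, receptors and regulators, and CD3, CD8 and Dpp4 genes in cycling T cells (y axis), for all members and without mixed-signal barcodes. Most effector and receptor genes lie left of 1, with Gzmb at 0.676 and Tigit at 0.485, and Ifng lies right at 2.70.

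Inhibitory receptors and the exhaustion genes around them were mostly lower in sitagliptin cycling T cells. Of 13 measured members 6 were lower and 0 higher past 1.5-fold, and 12 had a ratio under 1, with a median log2 ratio of -0.41. The list was lower in other T barcodes too, where 14 of 16 had a ratio under 1, with a median of -0.32. Past 1.5-fold 2 were lower and 1 was higher there. Tigit, a receptor of CD155, was at 143 and 69.6 CPM, a ratio of 0.485 (0.324 to 0.719). Ctla4, which competes with CD28 for its ligands, was at 374 and 215 CPM, a ratio of 0.575 (0.456 to 0.723). Lag3, a receptor of class II molecules, was at 102 and 63.4 CPM, a ratio of 0.620 (0.398 to 0.964). Entpd1, the ATP-cleaving ectoenzyme CD39, had a ratio of 0.615 (0.404 to 0.935).

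The receptors most used to mark exhausted cells differed less. Pdcd1, the gene of PD-1, was at 154 and 138 CPM, a ratio of 0.891 (0.645 to 1.24). Havcr2, the gene of TIM-3, was at 263 and 210.2 CPM, a ratio of 0.799 (0.621 to 1.03). Tox, the factor of the exhausted state, had a ratio of 0.872 (0.597 to 1.28). Within the members, on raw UMIs, Havcr2 was found in 59.4% and 62.7% of cells with Gzmb against 31.6% and 39.4% of cells without. The median depth of these cells was 4422 and 5284 UMIs against 3518 and 5207. Pdcd1 (51.6% and 53.7% against 42.1% and 39.4%) and Tnfrsf9 (81.25% and 82.1% against 57.9% and 60.6%) had the same order. So had the memory gene Il7r (57.8% and 56.7% against 42.1% and 45.5%), so the order was not particular to Havcr2.

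Ikzf2, the transcription factor Helios, was at 598 and 328 CPM, a ratio of 0.548 (0.456 to 0.658), and at 0.519 without mixed-signal barcodes. Its ratio in other T barcodes was 1.19 (1.04 to 1.37). Costimulatory receptors of the tumour necrosis factor receptor family were lower too. Tnfrsf4, OX40, was at 287 and 144 CPM, a ratio of 0.501 (0.380 to 0.658), and Tnfrsf18, GITR, at 298 and 187 CPM, a ratio of 0.628 (0.488 to 0.808). Tnfrsf9, 4-1BB, was at 643 and 479 CPM, a ratio of 0.745 (0.633 to 0.876). Over the activation list 6 of 23 genes were lower and 1 was higher past 1.5-fold, with a median of -0.30. Nr4a3, an early gene of receptor signalling, was the higher one, at 89.1 and 142 CPM, and Cd28 was near level at 139 and 148 CPM. Tnfrsf4, Tnfrsf18, Ikzf2, Ctla4 and Il2ra are also expressed by regulatory T cells. Foxp3 was seen in 6 of 83 and 4 of 100 members without thinning, and the regulatory T cell list, which holds some of these genes, summed to 1543 and 906 CPM. Its part in these ratios was not tested.

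CD3 and CD8 subunits did not move together between the libraries. Cd3d was at 609 and 573 CPM and Cd3g at 409 and 394 CPM, while Cd3e was at 256 and 402 CPM, a ratio of 1.57. Cd8a was at 419 and 374 CPM, while Cd8b1 was at 230.4 and 391 CPM, a ratio of 1.70 (1.35 to 2.15). Other T barcodes gave Cd3e a ratio of 1.59, Cd8b1 one of 1.52 and Cd8a one of 0.794. Cd3d, Cd3e and Cd3g belong to the rule and are described only.

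Dpp4, the target of the drug, was low in the cycling T cells of both libraries. It had 23 UMIs in control, 49.99 CPM (exact Poisson 95% interval 31.7 to 75), and 52 UMIs in sitagliptin, 80.4 CPM (60.02 to 105). The ratio was 1.61 (0.967 to 2.75), which includes 1. After thinning 13.3% and 13% of members had a UMI. Other T barcodes had 54.5 and 76.9 CPM, a ratio of 1.41 (0.934 to 2.19), macrophage barcodes 4.56 and 3.20 CPM, and natural killer barcodes 0 UMIs, with exact Poisson upper bounds of 15.6 and 7.5 CPM. Of 8 measured genes of the list of DPP4 and its partners 3 were higher past 1.5-fold. They were Dpp4, Dpp8, a related intracellular peptidase, at 43.5 and 68.0 CPM, and Cav1, the gene of caveolin-1, which had 5 and 19 UMIs, and 0 in each library without mixed-signal barcodes.

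The cell cycle lists changed with the mixed-signal barcodes. The median log2 ratio was 0.06 over 44 G1/S genes, with 4 higher and 2 lower past 1.5-fold, and -0.28 over 46 G2/M genes, with 0 higher and 9 lower. Without mixed-signal barcodes these medians were -0.10 and -0.15. Ube2c had a ratio of 0.534 (0.428 to 0.666), and 0.644 without mixed-signal barcodes. Plk1, the mitotic kinase, was at 69.5 and 26.3 CPM, a ratio of 0.378 (0.197 to 0.701), and of 0.526 (0.253 to 1.08) without them. Cenpf had a ratio of 0.623 (0.491 to 0.791). Hmgb2, a chromatin protein of dividing cells, was at 1906 and 2323 CPM, a ratio of 1.22 (1.12 to 1.33).

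Histone genes had ratios under 1 in 14 of 15 measured, against 3608 of 6464 genes at large, with a median of -0.38. The 2 that were lower past 1.5-fold are a share equal to that of all genes. Hist1h1b was at 3923 and 2869 CPM, a ratio of 0.731 (0.685 to 0.781), found in 66 of 83 and 78 of 100 members at a median of 34.5 and 15.8 UMIs per 10000. Hist1h1e, another linker histone, was at 3510 and 2586 CPM, a ratio of 0.737 (0.688 to 0.789). Without mixed-signal barcodes the list median was -0.43. Among members whose G1/S share was 40 to 60% the histone list summed to 13799 and 9492 CPM, and among those below 40% to 11970 and 10860 CPM. Most replication-dependent histone transcripts lack a poly(A) tail, and the libraries were made from polyA RNA, so these levels cover a part of histone RNA.

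Growth regulators showed no common direction. The list of cyclins, CDKs and inhibitors had a median of 0.03 over 26 genes, with 4 higher and 3 lower past 1.5-fold. Rb1, the retinoblastoma protein gene, was at 67.4 and 114 CPM, a ratio of 1.70 (1.10 to 2.67), and its relative Rbl2 at 161 and 95.8 CPM, a ratio of 0.596 (0.418 to 0.846). Cdkn1a, the CDK inhibitor p21, was at 217 and 141 CPM, a ratio of 0.647 (0.482 to 0.868), and Mdm2, another p53 target, had a ratio of 0.482 (0.263 to 0.866). Of 9 p53 target genes 2 were lower and 0 higher past 1.5-fold.

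MYC and ribosome biogenesis genes were level to slightly higher. Of 20 measured 16 had a ratio above 1, 0 were higher and 1 was lower past 1.5-fold, and the median was 0.09. The median in other T barcodes was -0.31. Ncl, nucleolin, was at 726 and 1085 CPM, a ratio of 1.49 (1.31 to 1.71), and Myc itself at 47.8 and 30.9 CPM, a ratio of 0.647 (0.335 to 1.24). Nucleotide genes had a median of 0.04 over 24, with 2 higher and 2 lower.

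Glycolysis and hypoxia genes were lower in sitagliptin. Of 24 measured 20 had a ratio under 1 and 6 were lower past 1.5-fold, with a median of -0.42, and -0.21 without mixed-signal barcodes. Aldoa, aldolase, was at 722 and 357 CPM, a ratio of 0.495 (0.416 to 0.587), and 0.493 without them. Gpi1, glucose phosphate isomerase, had a ratio of 0.577 (0.403 to 0.822). Pgk1 was at 567 and 348 CPM, a ratio of 0.613, which was 0.850 without them, and Ero1l had a ratio of 0.452, which was 0.7175 without them. Hif1a, the oxygen-sensing factor, was at 1045 and 1201 CPM. The list median was -0.39 in other T barcodes, and Aldoa was at 0.537 there and at 0.753 in macrophage barcodes.

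Respiratory genes were level, with a median of 0.05 over 35 genes. Atp5k, a subunit of ATP synthase, was at 102 and 225.7 CPM, a ratio of 2.21 (1.58 to 3.14). It was also higher in other T barcodes (2.39) and in macrophage barcodes (1.92). Ndufb1-ps, named as a pseudogene of a complex I subunit, had ratios of 2.22 in cycling T cells, 1.76 in other T barcodes and 1.81 in macrophages. Both differences were thus seen in all 3 kinds of barcode, and diet and library cannot be told apart in them.

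Type I interferon genes leaned higher. Of 20 measured 5 were higher and 2 lower past 1.5-fold, with a median of 0.18, and 0.34 without mixed-signal barcodes. Ifit2, an inhibitor of viral translation, was at 13.04 and 41.7 CPM, a ratio of 3.20 (1.29 to 9.48), and Ifit3 at 30.4 and 60.3 CPM, a ratio of 1.98 (1.05 to 3.95). Isg15, a ubiquitin-like modifier, was at 119.5 and 155 CPM, a ratio of 1.29 (0.921 to 1.83). The levels of most of these genes rest on few UMIs.

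Memory and homing genes were near level in cycling T cells. The memory list had a median of 0.11 over 12 genes, with 0 higher and 1 lower past 1.5-fold, against 0.38 in other T barcodes. Bach2 was at 102 and 149.9 CPM, a ratio of 1.47 (1.03 to 2.13), and Il7r at 185 and 184 CPM. The 1 lower gene was Klf2, at 183 and 100.5 CPM. Of its control UMIs 64.3% came from 1 barcode, and without mixed-signal barcodes its ratio was 1.79 (0.725 to 4.997). Cxcr6, a receptor of tumour-resident T cells, was at 106.5 and 159 CPM, a ratio of 1.49 (1.05 to 2.15). The homing list had a median of 0.02 over 15 genes. Immediate early and heat shock genes had a median of -0.17 over 17, with 3 lower, and endoplasmic reticulum genes one of -0.05 over 16.

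The 12 highest and 12 lowest ratios among 2978 eligible genes were read with their spread over cells. Zbed5, a gene derived from a transposase, had 0 UMIs in control and 83 in sitagliptin cycling T cells, 128 CPM, and was at least 19.7-fold higher against a floor of 3 control counts over the group. The exact 95% lower limit from 0 control counts was 15.6. In macrophage barcodes it had 23 control UMIs (1.05 CPM) and 4145 sitagliptin UMIs (126 CPM), a ratio of 120 (80.1 to 190.1). Cdk8, a kinase of the Mediator complex, was at 854 and 2634 CPM, a ratio of 3.08 (2.76 to 3.45), with 26.0% of the sitagliptin UMIs in 1 barcode and a ratio of 2.44 without the top barcode of each library. It was found in 81 of 83 and 98 of 100 members, and had ratios of 1.92 in other T barcodes and 2.09 in macrophages. Both differences were also seen outside T cells. Strain, reference and library as sources of such ratios cannot be told apart from diet here.

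The other named higher genes rested on fewer UMIs than Cdk8. Psmc1, a proteasome ATPase, was at 52.2 and 127 CPM, a ratio of 2.43 (1.53 to 4.01), and Eif4e, the cap-binding factor, at 34.8 and 80.4 CPM, a ratio of 2.31 (1.30 to 4.34). Ppih, a cyclophilin of the spliceosome, had a ratio of 2.28 and Lyar, a nucleolar factor, one of 2.22. The ratios of these 4 genes in other T barcodes were 1.18, 1.005, 0.614 and 0.866. Cxcl3 and Cxcl1, chemokines of myeloid and stromal cells, had ratios of 3.35 and 2.76, and 93.9% of the sitagliptin Cxcl3 UMIs came from 1 barcode. Without the top barcode of each library the ratio of Cxcl3 was 0.260, and without mixed-signal barcodes 0.357.

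The named lower genes were mostly myeloid or stromal. Ccl7, a monocyte chemokine, was at 133 and 9.27 CPM, a ratio of 0.070 (0.025 to 0.161), with 82.0% of its control UMIs in 1 barcode, and at 0.937 without mixed-signal barcodes. Ccl2 (0.152), Thbs1 (0.298), Cd14 (0.276) and Arg1 (0.211) had ratios of 0.937, 0.937, 0.875 and 1.67 without mixed-signal barcodes. Inhba (0.312) and Fn1 (0.364) had 0.625 each without them, on 5 and 9 UMIs in each library. Of the named lower genes 5 had a ratio under 0.6 without mixed-signal barcodes. Slpi, a protease inhibitor, had 0.171, and 0.240 without, with 68% of its control UMIs in 1 barcode. In the other 4 no barcode held more than 20% of a library's UMIs. They were Fcer1g, a signalling adaptor of natural killer and myeloid cells, at 300 and 88.1 CPM (0.294, 0.163 without), Serpine2, a protease inhibitor (0.361, 0.276 without), Arl4c, a small GTPase (0.356, 0.560 without), and Ccl4. Arl4c had a ratio of 1.32 in other T barcodes. The natural killer list, which holds Fcer1g itself, summed to 691 and 368 CPM in cycling T cells and to 1416 and 825 CPM in other T barcodes. In macrophage barcodes the list summed to 4873 and 4178 CPM, so its sum is not particular to natural killer cells. Which cells gave the Fcer1g UMIs was not tested.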

How the data were processed

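Raw counts (UMIs of each gene in each barcode) were deposited by the authors as 1 matrix per diet over 32285 gene IDs. The library kit is given per the labels' protocols. Aligner, counting program, genome build and annotation: not given in the sources used here. Groups follow the treatment label. Counts were read with scanpy 1.11.5, anndata 0.12.19, numpy 2.4.6, scipy 1.17.1 and pandas 2.3.3 under Python 3.11.15, rows of 1 symbol were summed (32245 symbols), and figures were drawn with matplotlib 3.10.9. The cycling T cells and all gene lists were chosen with earlier results of these data known.

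UMIs were summed per library over the cells chosen and scaled to CPM, with exact Poisson 95% intervals. Ratios have exact conditional binomial intervals, shares exact Clopper-Pearson intervals, and ratios of shares Katz log intervals. A library at 0 UMIs was set to a floor of 3 counts over the group. Lists were read by the median log2 ratio and by members past 1.5-fold, over genes with at least 20 UMIs in both libraries together (for cycling against other T barcodes, in each library). There were 18 lists of 457 entries, of which 3 symbols are not in the gene tables. Cell cycle genes of the rule stayed out of list medians for cycling against other T barcodes. Macrophage barcodes had at least 20 UMIs of the rule's macrophage genes and 0 of its T cell genes. Natural killer barcodes had at least 2 UMIs of Ncr1 and Klrb1c, at most 1 T cell UMI and at most 3 macrophage UMIs.

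Named genes between diets were the 12 highest and 12 lowest ratios with at least 60 UMIs and 50 CPM in the higher library. For cycling against other T barcodes they were 15 higher and 10 lower by the smaller of both libraries' log2 ratios, with at least 30 UMIs and 50 CPM. Mitochondrial, ribosomal, haemoglobin, antigen receptor, unnamed (Gm and Rik) and Y-linked genes, Xist, Tsix and the 14 rule genes stayed out. List members may be named at any value. Thinning drew 2000 UMIs per barcode. Sums and ratios were tested on simulated counts. TMM factors came from edgeR 4.0.16 under R 4.3.3, as an alternative only. Scrublet's automatic threshold marked no barcode, so the top 6% of scores were removed as an alternative. Promoter windows are those of RefSeq in GRCm38.p6. A few listed genes are not reported here.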

Additional observations from a re-analysis of the deposited data

Results flagged for a closer look

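In 4 results the diets differed in opposite directions in cycling T cells and in other T barcodes, among 393 list and named genes and the 18 lists compared. With 1 library per diet the difference between the 2 sets of cells was not tested. Cxcl1 had a ratio of 2.76 (1.57 to 5.12) in cycling T cells and of 0.106 (0.0262 to 0.318) in other T barcodes, and 62.5% of its control and 41.9% of its sitagliptin UMIs in cycling T cells came from 1 barcode. Gzma had ratios of 1.52 (1.27 to 1.82) and 0.548 (0.484 to 0.621), at 389 and 590.4 CPM in cycling T cells and 837 and 459 CPM in other T barcodes. Ikzf2 had ratios of 0.548 (0.456 to 0.658) and 1.19 (1.04 to 1.37), at 598 and 328 CPM and at 512 and 610.4 CPM. The genes of MYC and ribosome biogenesis had median log2 ratios of 0.089 and -0.31. The first of these is smaller than the shift of 0.11 under TMM scaling and was -0.014 without cells with Ncr1 or Klrb1c, so its direction is not firm.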

How the results depend on the processing

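Of the values recomputed under other settings 593 stayed inside the 95% interval of the reported value (for a list, the order-statistic interval of its median), 47 moved outside it and 7 turned. A change of sign was counted as turned only for a list median past 1.5-fold or a ratio whose interval left out 1, so the smaller medians that changed sign below are among those that moved. The cycling share of T barcodes kept its direction under all settings run (ratios 0.613 to 0.717 with a stricter T, cycle or macrophage limit, without the top Scrublet scores, without mixed-signal barcodes or after thinning, and 0.713 and 0.859 within T barcodes of 3000 to under 5000 UMIs and of 5000 or more), and the share of all barcodes ranged from 0.938 to 1.14. Diet medians of lists moved for G1/S genes to 0.17 with at least 3 cycle UMIs, 0.17 with TMM scaling and -0.10 without mixed-signal barcodes. They moved for MYC genes to -0.014 without cells with Ncr1 or Klrb1c, for interferon genes to 0.43 with at most 1 macrophage UMI, and for immediate early genes to -0.57 in CD8 cells. Without mixed-signal barcodes glycolysis moved to -0.21 and respiration to -0.079. Against other T barcodes, with at least 100 UMIs per gene, control G2/M genes moved to 1.84, sitagliptin nucleotide genes to 1.54, and cyclins turned to -0.089 in control and -0.32 in sitagliptin. In CD8 cells control glycolysis moved to -0.18, sitagliptin MYC genes to 0.49 and activation to -0.17. With cells weighted equally sitagliptin MYC genes moved to 0.44 and interferon genes to -0.073. Among single genes Cxcl3 turned to 0.429 in CD8 cells, 0.357 without mixed-signal barcodes and 0.260 without the top barcode, Ccl7 to 1.29 in CD8 cells and Arg1 to 1.67 without mixed-signal barcodes. The cause was not tested. The 83 and 100 cells limit genes under about 60 UMIs to wide intervals. No paired analysis was possible because each diet has 1 library, and no library could be left out.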

Other observations

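T cell receptor beta V segments were read in the cycling T cells as a count of cells. At least 1 Trbv UMI was found in 62 of 83 control and 65 of 100 sitagliptin members, over 16 segments in each library. The most frequent were Trbv12-1 in control, in 11 cells, and Trbv12-2 in sitagliptin, in 14 cells, where Trbv12-2 was in 10 control cells. Trbv13-2 was found in 10 and 8 cells, and Trbv19 in 9 sitagliptin cells. In other T barcodes Trbv13-2 led in control with 18 of 161 cells and Trbv12-2 in sitagliptin with 36 of 319. Trbv12-1 and Trbv12-2 are near-identical, and reads may have been split between them.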
